A study of Mus musculus with 5 samples.

Results

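The genes described here code mostly for proteins, or their subunits, that move ions, lipids or other molecules across membranes with the energy of ATP. Among them are genes of the sodium, calcium, proton and copper pumps, the phospholipid flippases and the ATP-binding cassette (ABC) family. They were chosen by name, as every gene whose single symbol in the array's probe annotation starts with Atp1 followed by a or b or a digit, with Atp2, Atp6, Atp7, Atp8 or Atp9, or with Abca to Abcg and a digit. The pattern matched 57 genes on 72 probes, and 55 of them, on 69 probes, had a value on all 5 arrays, out of 8798 such genes in all. They comprise 3 of 3 sodium pump genes, 6 of 6 under the calcium pump pattern, 12 of 12 for the proton pump, 10 of 10 flippases, 2 of 2 copper pumps, 4 of 4 other P-type pumps and 18 of 20 ABC genes. The remaining ABC genes, Abca3 and Abcc4, had no value on array 4 and were not tested. The pattern also took in Atp23, a mitochondrial metalloprotease of ATP synthase assembly, which is no calcium pump.

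Retina RNA of adult C57/B6 mice was labelled with Cy5, and cortex RNA of Swiss-Webster mice of postnatal day 1 with Cy3. Each tissue was 1 pool, and both pools were hybridised together on each of 5 two-colour Agilent arrays, to measure how much values vary within the platform. The sources used here do not give the number of pooled animals or the age of the adults. Tissue, age, strain and dye change together, so they cannot be told apart. The labels call the arrays technical replicates, so a p below measures error of labelling and hybridisation alone, and no spread between animals.

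A P-type pump is phosphorylated on itself in each transport cycle. The sodium pump holds the cell's sodium and potassium gradients, and its beta subunit brings the catalytic alpha subunit to the membrane. In photoreceptors it sits in the inner segment and drives the dark current, a large energy cost of the retina. The proton pump (V-ATPase) is a rotary machine with a V1 sector that splits ATP and a membrane V0 sector that carries protons, and it acidifies lysosomes and synaptic vesicles. Flippases are P-type pumps that move phospholipids to the cytosolic leaflet, and most ABC proteins export lipids, drugs or metabolites.

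Values are log2 ratios of retina over cortex, as mean ± SD over n = 5 arrays. The log10 base of the deposited values and the direction are likely rather than stated, as detailed with the processing. The words higher and lower are kept for genes for which limma's test against a minimum of 2-fold gave an adjusted p below 0.05. The test against a ratio of 0 is reported apart, as above 0 or below 0, because without a dye swap a small ratio that repeats can hold a dye effect.

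The labelled tissues bore their markers. Both measured rod genes, the 1 cone gene and the 1 bipolar gene were higher in retina, with ratios from 2.97 to 4.30, and 4 of 6 genes of newborn cortical neurons were lower, down to -3.99. Higher in retina were also 2 of 4 amacrine and horizontal cell genes and 2 of 3 ganglion cell genes. Among other cells the tissue pieces could hold, 3 of 5 meningeal genes and the 1 measured red cell gene were lower. The 2 measured choroid plexus genes went opposite ways: Ttr, also the 1 measured marker of pigment epithelium, was lower at -1.40, and Otx2, which photoreceptors and bipolar cells also express, was higher at 3.42. No gene of 3 for microglia or 2 for oligodendrocytes passed, by adjusted or unadjusted p of limma's 2-fold test.

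Of the 55 genes 1, the sodium pump subunit Atp1b2, was higher in the retina pool, and none was lower. No other gene of the 55 reached an unadjusted p below 0.05 in the 2-fold test of limma. That is 1.82% of the measured genes, where 6.63% of all genes passed in either direction, 2.8% higher and 3.83% lower. Of the 55 genes, 53 had a mean within 2-fold of 0, or 96.4% against 90.3% of all genes. Their median ratio was 0.05 and that of all genes -0.0048. Against a ratio of 0, 23 of the genes were above and 16 below, and 16 were not separated from 0. In this test 73.7% of all genes passed, 37% above 0 and 36.7% below, so the shares lie near the background.

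**Figure D1:**
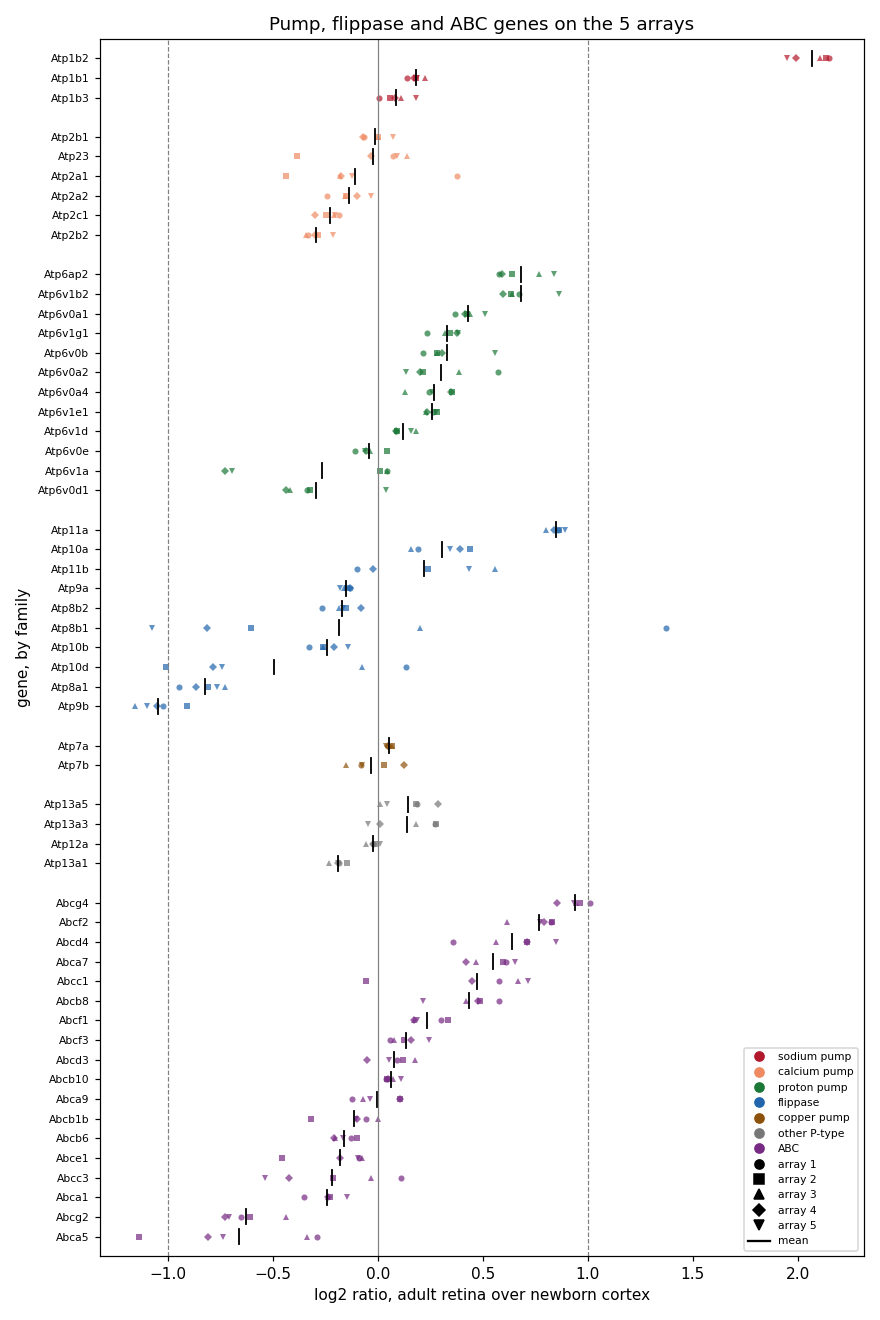
Log2 ratio of adult retina over newborn cortex (horizontal axis) of each of the 55 measured genes (vertical axis, grouped by family and ordered by mean). Symbols are the 5 arrays, black bars the means, and dashed lines mark 2-fold. Atp1b2 alone has a mean beyond 1 on the right, with arrays from 1.95 to 2.15, and Atp8b1 has the widest spread, from -1.08 to 1.37.

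The sodium pump was represented by its 3 beta subunits, and they differed widely. Atp1b2, the beta-2 subunit, first described as an adhesion molecule on glia and in retina a partner of the secreted protein retinoschisin, read 2.15, 2.13, 2.11, 1.99 and 1.95 on arrays 1 to 5. All 5 arrays lay within 0.20 log2 of one another. Its mean was 2.07 ± 0.09, or 4.19-fold higher in retina, with an adjusted p of 3.63e-06 in limma's 2-fold test, and it ranked 68th from the top among 8798 genes. It was measured by 1 probe.

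Atp1b1, the most widespread beta subunit, read 0.14, 0.18, 0.22, 0.17 and 0.19 on arrays 1 to 5. These values sit just above 0 on every array, and the mean of 0.18 ± 0.03 was above 0 and did not pass the 2-fold test. Atp1b3, the beta-3 subunit, read 0.0032, 0.06, 0.11, 0.08 and 0.18, with a mean of 0.09 ± 0.07. It passed the test against 0 with an adjusted p of 0.045 from limma, and it did not pass when array 2, 3, 4 or 5 was left out (adjusted p between 0.072 and 0.114). The difference Atp1b1 minus Atp1b2 was -1.89 ± 0.10 log2 and Atp1b2 minus Atp1b3 was 1.98 ± 0.15, each with the same sign on 5 of 5 arrays. For each of these pairs the exact two-sided sign-flip permutation test gave p = 0.063, the smallest that 5 arrays allow, or 0.102 adjusted over 18 pairs. The catalytic alpha subunits were not analysed here.

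Markers of cells known to express Atp1b2, glia and photoreceptors, were measured on the same arrays. In the list of Müller glia and astrocyte markers 2 of 4 measured genes were higher, Clu and Dkk3, and the range was 0.71 to 2.69. In the rod list both measured genes were higher, at 2.97 and 4.30. Ratios hold no level of a marker in each pool, and the part of these cell types in the Atp1b2 ratio was not tested. With bulk RNA, more cells of a type and more RNA per cell cannot be told apart.

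Among regulators of the sodium pump, 4 of 11 listed genes were measured, 1 of which was lower and none higher. Fxyd6, a small membrane protein of the FXYD family that modulates the pump, read -1.43 ± 0.03, or 2.69-fold lower in retina, with an adjusted p of 2.37e-05 in limma's 2-fold test. The sodium pump interacting gene Nkain2 stood at -1.01 ± 0.06 and did not pass, nor did Fxyd3 (0.23 ± 0.14) and Fxyd4 (0.04 ± 0.07).

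**Figure D2:**
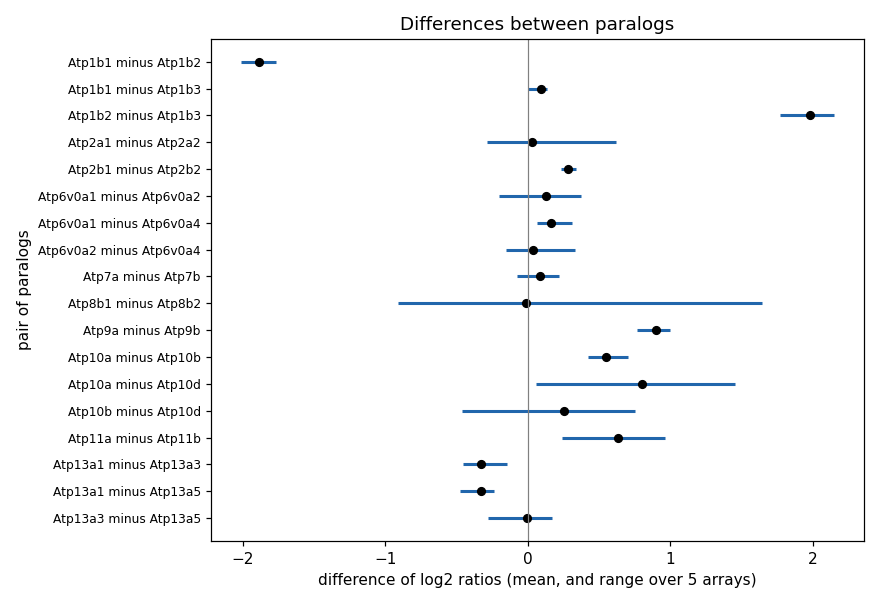
Difference between the log2 ratios of 2 genes of the same subunit series (horizontal axis, log2) for 18 pairs (vertical axis). Points are means over 5 arrays and bars run from the lowest to the highest array. The pairs with Atp1b2 lie near 2 in size, Atp9a minus Atp9b has a mean of 0.90, and the bar of Atp8b1 minus Atp8b2 spans 0 from -0.91 to 1.64.

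The calcium pumps clear calcium from the cytosol, into the endoplasmic reticulum (Atp2a), across the plasma membrane (Atp2b) or into the Golgi (Atp2c). No gene of the 6 passed the 2-fold test, all 6 means were below 0, and the family median was -0.12, or -0.14 without Atp23. The lowest was Atp2b2, a fast plasma membrane pump of neurons and hair cells, at -0.34, -0.29, -0.34, -0.30 and -0.22 on arrays 1 to 5. It was below 0 on every array, with a mean of -0.30 ± 0.05 or 1.23-fold toward cortex.

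The highest was Atp2b1, the common plasma membrane pump, at -0.07, -0.00040, -0.0025, -0.07 and 0.07. Its arrays fell on both sides of 0, and its mean was -0.01 ± 0.06. The difference Atp2b1 minus Atp2b2 was 0.28 ± 0.04 with the same sign on 5 of 5 arrays (exact sign-flip permutation p = 0.063, adjusted 0.102). The 2 probes of Atp2b1 had means of -0.17 and 0.15, a range of 0.32 log2, and with the lower probe alone the gene was below 0 (adjusted p = 0.0093 from limma).

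The Golgi pump Atp2c1 (-0.23 ± 0.05) and the endoplasmic reticulum pump Atp2a2 (-0.14 ± 0.08) were below 0 in the limma test against 0. Without arrays 1 and 4, which held most of the values at the scale's limit, Atp2a2 did not pass that test (adjusted p = 0.093). Array 4 also had the most missing values (1068), while array 1 had the fewest (174). Atp2a1, the pump of fast muscle, varied between arrays from -0.44 to 0.37, with a mean of -0.11 ± 0.30, not separated from 0. Array 1 decided this call, since without it Atp2a1 stood at -0.23 and was below 0 (adjusted p = 0.019 from limma). Atp23 stood at -0.02 ± 0.21. Of 17 listed partners of calcium stores and pumps, 6 were measured and 0 passed limma's 2-fold test. The farthest from 0 of these was basigin, Bsg, a chaperone of plasma membrane transporters, at 0.43 ± 0.06. None of these partners had an unadjusted p below 0.05 in that test.

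Most proton pump genes were slightly above 0. Of 12 genes, 9 were above 0 in the limma test against 0, 1 was below and 2 were not separated from 0. Of all genes, 37% were above 0 and 36.7% below in that test. None of the 12 passed the 2-fold test. The family median was 0.28, the highest of the 7 families, and it ran from 0.24 to 0.28 over the arrays. Without arrays 1 and 4 the family had 8 genes above 0 and none below.

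In the V1 sector, Atp6v1b2, the brain form of the B subunit, read 0.67, 0.63, 0.64, 0.59 and 0.86 on arrays 1 to 5. Array 5 stood above the other 4, and the mean was 0.68 ± 0.11, or 1.60-fold, with both probes above 0. The stalk subunits Atp6v1g1 (0.33 ± 0.06), Atp6v1e1 (0.26 ± 0.02) and Atp6v1d (0.12 ± 0.05) were also above 0. The catalytic A subunit, Atp6v1a, had a mean of -0.27 ± 0.41, and its 2 probes disagreed. The higher probe read 0.49, 0.51, 0.59, 0.47 and 0.66 on arrays 1 to 5. Its mean of 0.54 lay below that of Atp6v1b2 and above those of the stalk subunits. The other probe read -0.41, -0.49, -0.51, -1.93 and -2.06, so arrays 4 and 5 stood far below the other 3. With the lower probe alone Atp6v1a stood at -1.08 and was below 0 (adjusted p = 0.021 from limma, against 0.151 with both), and the cause of the disagreement was not tested.

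In the V0 sector, Atp6v0a1, the a subunit isoform of neurons and synaptic vesicles, stood at 0.43 ± 0.05. Another probe of Atp6v0a1 lacked array 4 and had a mean of -0.04 ± 0.26 over 4 arrays. Leaving out array 4, so that both probes entered, put the gene at 0.20. Without arrays 1 and 4 it stood at 0.19 and did not pass the test against 0 (adjusted p = 0.083 from limma), against 1.90e-05 with all arrays. The isoforms Atp6v0a2 (0.30 ± 0.18), of Golgi and endosomes, and Atp6v0a4 (0.27 ± 0.09), of kidney and inner ear, were above 0 as well. The 3 pairs of these isoforms differed by 0.16 log2 or less. The proteolipid subunit Atp6v0b reached 0.33 ± 0.13, and the small subunit Atp6v0e was at -0.05 ± 0.06.

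Atp6v0d1, the subunit that joins V0 to the central stalk, was the lowest of the family at -0.34, -0.32, -0.42, -0.44 and 0.04 on arrays 1 to 5. Array 5 alone lay above 0, and the mean of -0.30 ± 0.19 was below 0, with an adjusted p of 0.0107 from limma (0.124 without arrays 1 and 4). The highest was the accessory protein Atp6ap2, also known as the prorenin receptor, at 0.58, 0.64, 0.77, 0.59 and 0.84. It was above 0 on every array, with a mean of 0.68 ± 0.12 or 1.60-fold.

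Of 13 listed partners of the proton pump, 10 were measured and 0 passed limma's 2-fold test, also with no adjustment. Ccdc115, an assembly factor of the pump, was farthest from 0 at 0.68 ± 0.05. Their median was 0.07, against 0.28 for the pump genes and -0.0048 for all genes.

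Flippases pointed both ways, and none of the 10 passed the 2-fold test. Against a ratio of 0, 2 were above, 6 below and 2 not separated, where 37% of all genes were above and 36.7% below. The family median was -0.18. Atp11a, a plasma membrane flippase of phosphatidylserine, was the highest at 0.86, 0.86, 0.80, 0.84 and 0.89 on arrays 1 to 5. The 5 values spanned 0.09 log2, and the mean of 0.85 ± 0.03, or 1.80-fold, ranked 494th from the top among all genes. Its paralog Atp11b stood at 0.22 ± 0.28, not separated from 0, but was above 0 without array 1 (0.30, adjusted p = 0.043 from limma) and without arrays 1 and 4 (0.41, adjusted p = 0.012).

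The lowest was Atp9b, a flippase-like ATPase of the trans-Golgi, at -1.02, -0.91, -1.16, -1.05 and -1.10. On 4 of 5 arrays it was past 2-fold, and the mean of -1.05 ± 0.09, or 2.07-fold, did not pass the 2-fold test (adjusted p = 1 from limma), with an unadjusted p of 0.129. Its paralog Atp9a, of endosomes, was at -0.15 ± 0.02, so that the pair differed by 0.90 ± 0.08 on 5 of 5 arrays (exact sign-flip permutation p = 0.063, adjusted 0.102).

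Atp8a1, a phosphatidylserine flippase abundant in brain, read -0.95, -0.81, -0.73, -0.87 and -0.77 on arrays 1 to 5. Every array was below 0 and none reached 2-fold, with a mean of -0.83 ± 0.09 or 1.77-fold. Atp10a was above 0 (0.30 ± 0.12), and Atp10b (-0.24 ± 0.07) and Atp8b2 (-0.17 ± 0.07) were below 0. Atp10d, at -0.50 ± 0.50, was below 0 with an adjusted p of 0.045 from limma, and did not pass when array 2, 4 or 5 was left out (0.113 to 0.131). Atp8b1, whose human counterpart is mutated in inherited cholestasis, read 1.37, -0.61, 0.20, -0.81 and -1.08. Its arrays fell on both sides of 0 with an SD of 0.99, the largest among the 55 genes, and no direction can be given.

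Of 12 listed flippase partners and scramblases, 3 were measured and 0 passed the 2-fold test of limma. Plscr1, named as a phospholipid scramblase and known as an interferon-induced gene, stood highest at 1.48 ± 0.39 (adjusted p = 0.110, unadjusted p = 0.0076). The CDC50 subunits that most flippases need, Tmem30a to Tmem30c, were not analysed here.

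The windows just upstream of Atp11a and Atp8a1 are shown because these are the flippases farthest apart in ratio that have a window, and that of Atp6v0b because it holds motifs that theirs lack. It is not typical of the proton pump genes, of which 2 of 9 with a window, Atp6v0b and Atp6v1a, held CACGTG. Each is the 250 bases before the annotated start, from RefSeq, build GRCm38.p6, printed 5′ to 3′ on the strand of the gene. Capitals mark matches on either strand to GGGCGG (the GC box), to CCAAT (the CCAAT box), to TATAAA (the TATA box), to CACGTG (an E-box, which lysosomal gene regulators are known to bind) or to TAATCC (a core bound by homeodomain factors). None of these motifs is part of another. The window of Atp11a is chr8:12756766-12757015, plus strand, that of Atp8a1 chr5:67847432-67847681, minus strand and that of Atp6v0b chr4:117887330-117887579, minus strand.
Atp11a: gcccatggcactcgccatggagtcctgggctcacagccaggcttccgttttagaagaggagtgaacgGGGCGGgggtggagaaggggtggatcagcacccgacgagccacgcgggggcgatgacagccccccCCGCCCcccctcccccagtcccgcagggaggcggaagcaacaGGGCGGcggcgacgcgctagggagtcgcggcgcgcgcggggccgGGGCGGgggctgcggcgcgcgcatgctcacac
Atp8a1: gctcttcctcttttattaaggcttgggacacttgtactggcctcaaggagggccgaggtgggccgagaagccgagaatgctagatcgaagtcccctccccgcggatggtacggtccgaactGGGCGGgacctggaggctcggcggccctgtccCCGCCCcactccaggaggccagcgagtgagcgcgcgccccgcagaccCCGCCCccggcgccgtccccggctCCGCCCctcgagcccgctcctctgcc
Atp6v0b: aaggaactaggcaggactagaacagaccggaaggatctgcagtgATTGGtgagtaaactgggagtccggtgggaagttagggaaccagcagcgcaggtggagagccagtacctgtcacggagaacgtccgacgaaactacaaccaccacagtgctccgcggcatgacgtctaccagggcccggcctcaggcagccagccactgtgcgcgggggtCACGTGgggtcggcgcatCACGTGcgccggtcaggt

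Both flippase windows held 4 GC boxes and no other of these motifs, although the genes lay on opposite sides of 0. The Atp6v0b window held CACGTG at 2 places and CCAAT at 1. Of the 55 measured genes, 39 had a window, and Atp1b2 had none. A GC box lay in a window of 28 of the 39 genes and in 35.4% of 27025 genes with a window. It was found for 6 of 6 flippases and 5 of 9 proton pump genes. CACGTG was found for 6 of the 39 and in 6.86% of all genes, TAATCC for 4 and in 7.21%, CCAAT for 12 and in 37.5%, and TATAAA for 3 and in 14.3%. These are matches of letters in a short window and show no binding. The 27025 genes were not limited to the 8798 measured on the arrays, so the shares come from unlike sets.

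The copper pumps and the remaining P-type pumps lay close to 0. Atp7a, mutated in human Menkes disease, read 0.05, 0.07, 0.07, 0.05 and 0.04 on arrays 1 to 5. Those 5 values are nearly equal, and the mean of 0.05 ± 0.01 was not separated from 0 (adjusted p = 0.057 from limma, 0.048 with array weights). Atp7b, mutated in human Wilson disease, read -0.08, 0.03, -0.15, 0.12 and -0.07. Its arrays fell on both sides of 0, with a mean of -0.03 ± 0.11.

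Of 11 listed genes of copper handling, 8 were measured, 1 was higher and none lower. Commd1, known in dogs as a gene of copper toxicosis, stood at 1.15 ± 0.07, or 2.22-fold higher, with an adjusted p of 0.030 in limma's 2-fold test. The metallothionein gene Mt1 (0.90 ± 0.04) and the copper chaperone Atox1 (-0.17 ± 0.01) did not pass.

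Among the other P-type pumps, Atp13a1, which removes misplaced membrane proteins from the endoplasmic reticulum, was the lowest at -0.18, -0.15, -0.23, -0.19 and -0.19. It was below 0 on every array, with a mean of -0.19 ± 0.03. Atp13a5 was the highest at 0.19, 0.18, 0.01, 0.29 and 0.04, all above 0. Its mean of 0.14 ± 0.11 was above 0 with an adjusted p of 0.032 from limma, and it did not pass without array 1, 2 or 4 (0.080 to 0.089). Atp13a3, of polyamine transport, was at 0.14 ± 0.15 and the nongastric proton pump Atp12a at -0.02 ± 0.02, and neither was separated from 0. Without array 5 Atp13a3 was above 0 (0.18, adjusted p = 0.028 from limma), as it was with the noisiest genes left out (adjusted p = 0.043).

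**Figure D3:**
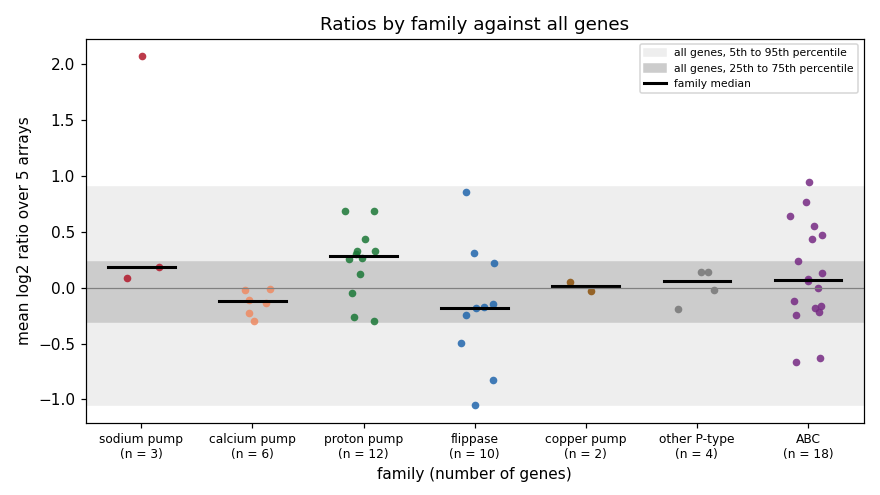
Mean log2 ratio over 5 arrays (vertical axis) of each gene, by family (horizontal axis, with the number of genes). Black bars are family medians, and grey bands hold the central part of all 8798 genes, from -0.30 to 0.23 (dark) and from -1.05 to 0.90 (light). The proton pump median of 0.28 lies just above the dark band, and Atp1b2 at 2.07 lies far above the light band.

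No ABC gene passed the 2-fold test, and the 18 genes were spread about as widely as all genes. Their median was 0.07, and the interquartile range was 0.64 log2, against 0.53 for all genes. Against a ratio of 0, 8 genes were above, 5 below and 5 not separated, where 37% of all genes were above and 36.7% below.

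Abcg4, a sterol transporter of neurons, was the highest at 1.01, 0.96, 0.94, 0.85 and 0.93 on arrays 1 to 5. It was above 0 on every array and past 2-fold on array 1 alone, with a mean of 0.94 ± 0.06 or 1.92-fold. Its relative Abcg2, an exporter of drugs and urate found in the wall of brain vessels, was below 0 at -0.63 ± 0.12, or 1.55-fold. Of 6 measured vessel markers, from -0.47 to 1.44, 3 were higher in retina and none lower by the 2-fold test. In the test against 0, which placed Abcg2 below, 3 of these markers were above, 2 below and 1 not separated. The part of vessels in the Abcg2 ratio was not tested.

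The lowest ABC gene was Abca5, a lysosomal lipid transporter, at -0.29, -1.14, -0.34, -0.81 and -0.74. It was below 0 on every array and past 2-fold on array 2 alone, with a mean of -0.66 ± 0.35. Abca1, which loads cholesterol on apolipoprotein A-I, was below 0 at -0.24 ± 0.07, while Abca7, of the same subfamily, was above 0 at 0.55 ± 0.10. Abca9 stood at -0.0050 ± 0.10. The photoreceptor transporter Abca4 was not analysed here.

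The ABC proteins without a membrane domain act on ribosomes and are no transporters. Abcf2 read 0.77 ± 0.09, or 1.70-fold, Abcf1 0.23 ± 0.08 and Abcf3 0.13 ± 0.07, all above 0. Without arrays 1 and 4, Abcf3 did not pass the test against 0 (adjusted p = 0.062 from limma). Abce1, which splits ribosomes after termination, was at -0.18 ± 0.16, below 0 with an adjusted p of 0.037 from limma. It did not pass when array 1, 4 or 5 was left out (0.053 to 0.089). Its 2 probes had means of -0.27 and -0.09.

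Among transporters of organelles, Abcd4, which exports vitamin B12 from lysosomes, stood at 0.64 ± 0.19 and the mitochondrial Abcb8 at 0.43 ± 0.14, both above 0. The peroxisomal Abcd3 (0.08 ± 0.09) and the mitochondrial Abcb10 (0.06 ± 0.03) were not separated from 0, though Abcd3 was above 0 without array 4 (0.11, adjusted p = 0.033 from limma). The porphyrin transporter Abcb6 was below 0 at -0.16 ± 0.05. Abcc1, an exporter of leukotrienes and conjugates, was above 0 at 0.47 ± 0.31, with 4 of 5 arrays above 0 and array 2 at -0.06, and it did not pass without arrays 1 and 4 (adjusted p = 0.102 from limma). Abcb1b, a P-glycoprotein gene with the close copy Abcb1a, stood at -0.12 ± 0.12 and Abcc3 at -0.22 ± 0.27, neither separated from 0. Without array 1 Abcc3 was below 0 (-0.30, adjusted p = 0.029 from limma), and with the noisiest genes left out so was Abcb1b (adjusted p = 0.044).

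Of 13 listed relatives, channel partners and regulators of ABC genes, 9 were measured and 0 passed limma's 2-fold test, with 0 at an unadjusted p below 0.05. The farthest from 0 was Rxra, a nuclear receptor that controls Abca1 with its partner receptors, at 1.05 ± 0.04 (adjusted p = 0.733). Apolipoprotein E, Apoe, which takes up lipid from ABC exporters, stood at 0.77 ± 0.06.

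Of the 55 genes, 13 had several complete probes, and the probe means differed in sign in 5 of them, Abcb1b, Abcc3, Atp2a2, Atp2b1 and Atp6v1a. The range of probe means was largest for Atp6v1a at 1.62 log2, followed by Abcc3 at 0.61, and its median over the 13 genes was 0.29. The median SD of a gene between arrays was 0.09 over the 55 genes and 0.09 over all genes. The 42 genes with 1 probe, Atp1b2 among them, have no such check.

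**Figure D4:**
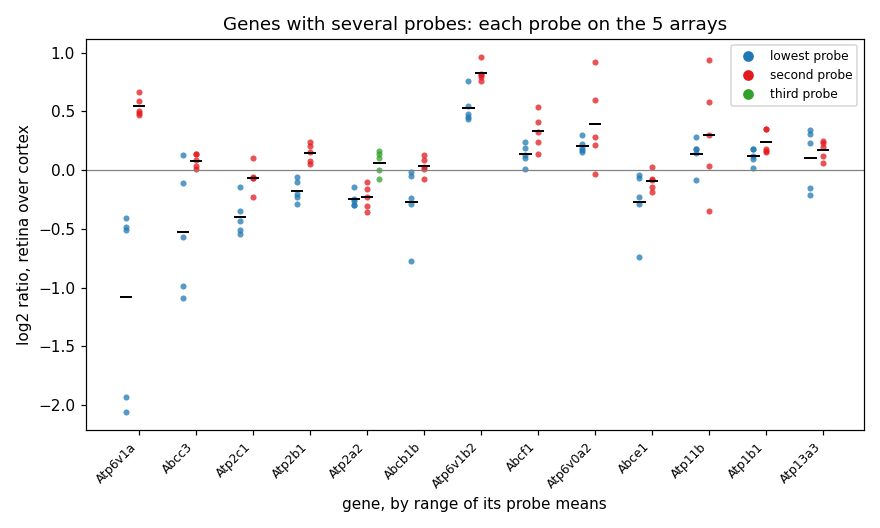
Log2 ratio of retina over cortex (vertical axis) of each complete probe on the 5 arrays, for the 13 genes with several probes (horizontal axis, ordered by the range of probe means). Points are arrays, colours the probes of a gene and black bars their means. The lower Atp6v1a probe falls to -1.93 and -2.06 on 2 arrays, while the other stays between 0.47 and 0.66.

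Over the 18 pairs of paralogs in a subunit series, 11 had the same order on all 5 arrays and 2, both with Atp1b2, differed by more than 1 log2. No pair could pass the exact test, whose smallest adjusted p was 0.102. Besides the pairs above, Atp10a was above Atp10b by 0.55 ± 0.11 and above Atp10d by 0.80 ± 0.62, and Atp11a was above Atp11b by 0.63 ± 0.29. Atp13a1 minus Atp13a3 was -0.33 ± 0.14 and Atp13a1 minus Atp13a5 -0.33 ± 0.10, and Atp6v0a1 minus Atp6v0a4 was 0.16 ± 0.11. The order differed between arrays for Atp2a1 and Atp2a2, Atp6v0a1 and Atp6v0a2, Atp6v0a2 and Atp6v0a4, and Atp7a and Atp7b. It also differed for Atp8b1 and Atp8b2, Atp10b and Atp10d, and Atp13a3 and Atp13a5.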

How the data were processed

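The deposited table holds 1 value per probe and array for 21446 probes. The deposited values were read as log10 ratios of red over green: they are signed and stop exactly at 2 and -2, where 5 values lie. Per the labels retina carried Cy5 and cortex Cy3, so a ratio is likely retina over cortex. Each array's median log10 ratio is 0 or near it (-7.32e-05 on array 5), by centring that is unknown. The sources used here do not give scanner software, background correction or dye normalization. Signal levels are not part of the table, and precision is limited by the number of arrays.

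Multiplication by 3.32 turned the values into log2 ratios. An exact 0 (174 to 1068 per array, most on array 4) was read as no value. Probes with 1 annotated symbol, 11813 in all, were named by gene identifier through RefSeq (GRCm38.p6), which matched 11782. A gene's value was the mean of its probes with 5 values, for 8798 genes. limma 3.58.1 in R 4.3.3 fitted an intercept to all genes. It was tested against 2-fold (treat) and against 0 (eBayes), with Benjamini-Hochberg adjustment over all genes and a threshold of 0.05. Tested on simulated data of 8798 genes made for this comparison, the 2-fold test recovered 88% of genes at a log2 size of 1.5 and 100% at 2. Every measured gene of the families may be named. The values of every array are given for genes past 2-fold and for the highest and lowest of each family, and for further genes chosen after their values were seen (Atp1b1, Atp1b3, Atp6v1b2, Atp8a1, Atp8b1, both Atp6v1a probes). Partner and marker lists, like the families, were chosen with earlier results of these data known. Alternatives covered centring, scaling, missing values, noisy genes, the probe rule, the minimum fold, array weights, the prior, the log base, family membership and arrays left out.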

Additional observations from a re-analysis of the deposited data

Results flagged for a closer look

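For 5 of the 55 genes checked, 1 array lay far from the other 4 by Dixon's criterion for a lone extreme value, where chance gives about 5% per group. The criterion was run on these 55 genes alone, so no share over all genes stands beside this count. Array 5 was the high one for 3 proton pump genes. Whether it was also the lone high array for genes outside the 55 was not tested. Atp6v0b read 0.56 there and between 0.21 and 0.31 elsewhere, Atp6v1b2 read 0.86 against 0.59 to 0.67, and Atp6v0d1 read 0.039 against -0.44 to -0.32. On array 2 Abce1 was low, at -0.46, with -0.18 to -0.08 on the rest. Of its 2 probes, number 19380 read -0.74 on that array and number 2568 read -0.19. On array 3 Abcf2 was low, at 0.61, with 0.77 to 0.83 on the rest.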

How the results depend on the processing

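Atp1b2 passed the 2-fold test under each setting run except a minimum of 4-fold and the reading of the values as log2 (0.62), which left 0 of the 55 genes and 105 and 7 of all genes. A minimum of 1.5-fold gave 1408 genes and 6 of the 55, adding Abcf2, Abcg4, Atp11a, Atp8a1 and Atp9b. With each array left out in turn, 528 to 562 genes and 1 of the 55 passed, and 21 to 23 of the 55 were above 0 and 14 to 17 below. Leaving out arrays 1 and 4 together, and Atp23 from the calcium pumps, were chosen after seeing the data. Family medians read as log2 were 0.054 (sodium), -0.037 (calcium), 0.085 (proton), -0.054 (flippase) and 0.021 (ABC). With the median probe, which for a gene with 2 probes was the lower, they were 0.12 (sodium), -0.20 (calcium) and 0.26 (proton). That setting also put the median of all genes at -0.032. The proton pump median was 0.26 with exact 0 read as a ratio of 1 and with at least 3 values, 0.27 without accessory proteins, 0.30 without the noisiest genes, 0.33 over probes and 0.25 without arrays 1 and 4. The ABC median was 0.078 without the noisiest genes, 0.066 with array weights, 0.095 without arrays 1 and 4 and 0.028 without Abce and Abcf. Over single arrays left out, medians ran from 0.25 to 0.29 (proton), 0.056 to 0.087 (ABC), 0.17 to 0.19 (sodium), -0.17 to -0.080 (calcium) and -0.20 to -0.16 (flippase).

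Signs turned for some ratios and differences near 0. With 1 array left out, Abca9 ran from -0.033 to 0.025, Atp23 from -0.065 to 0.066 and Atp8b1 from -0.57 to 0.038. Atp2b1 was at 0.023 without arrays 1 and 4. Scaled arrays gave 0.060 for Atp8b1 minus Atp8b2 and 0.0088 for Atp13a3 minus Atp13a5. Atp6v0a1 minus Atp6v0a2 was -0.10 and Atp6v0a1 minus Atp6v0a4 -0.065 with exact 0 as a ratio of 1, -0.059 and -0.023 with at least 3 values, and -0.055 and -0.056 without arrays 1 and 4. Without those arrays Atp2a1 minus Atp2a2 was -0.13, Atp6v0a2 minus Atp6v0a4 -0.00079 and Atp13a3 minus Atp13a5 0.058. Atp6v0a2 minus Atp6v0a4 was -0.059 with the median probe, for Atp6v0a2 the lower of 2. With 1 array left out, Atp2a1 minus Atp2a2 ran from -0.12 to 0.11, Atp6v0a1 minus Atp6v0a2 from -0.13 to 0.21 and minus Atp6v0a4 from -0.045 to 0.19. Atp6v0a2 minus Atp6v0a4 ran from -0.039 to 0.082, Atp8b1 minus Atp8b2 from -0.43 to 0.21 and Atp13a3 minus Atp13a5 from -0.046 to 0.066. The differences Atp6v0a1 minus Atp6v0a2 and minus Atp6v0a4 turned only in settings where the Atp6v0a1 probe lacking array 4 entered. The cause of the turns was not tested further. The arrays form 1 group, so there was no other group to pair them with. Each ratio already compared both pools on 1 array, and paralog differences were taken array by array.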

Other observations

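Abca3, a lipid transporter, and Abcc4, an exporter of conjugates and cyclic nucleotides, were measured on 4 arrays, with no value on array 4. Abca3 read -0.81, -0.62, -0.70 and -0.41 on arrays 1, 2, 3 and 5, below 0 on each. Abcc4 read 0.0023, 0.23, -0.03 and 0.20, near or above 0. A pair of probes annotated to both the proton pump gene Atp6v1h and the adaptor gene Ap3d1 entered no comparison. Their means were -0.19 ± 0.04 and -0.40 ± 0.08 over 5 arrays.

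The probes numbered 11635 (Abcc3) and 11636 (Atp10d) are adjacent in number and had a similar course over arrays 1 to 5. The Abcc3 probe read 0.13, -0.57, -0.11, -0.98 and -1.09, and the Atp10d probe 0.13, -1.01, -0.08, -0.79 and -0.75. The other Abcc3 probe, number 2870, stayed between 0.01 and 0.14 on all 5 arrays. Probes 19380 (Abce1) and 19397 (Abcb1b) are also close in number and had a similar course. The Abce1 probe read -0.04, -0.74, -0.06, -0.29 and -0.23, and the Abcb1b probe -0.05, -0.77, -0.01, -0.29 and -0.24. The other probes of these genes, 2568 (Abce1) and 7441 (Abcb1b), read -0.19 and 0.13 on array 2. A course with arrays 2, 4 and 5 below arrays 1 and 3 was not limited to probes close in number. Probe 13341 (Abca5) read -0.29, -1.14, -0.34, -0.81 and -0.74, and probe 3481 (Atp8b1) 1.37, -0.61, 0.20, -0.81 and -1.08. The cause of the shared course was not tested.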
